A study of Mus musculus with 12 samples.

Results

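Cytoplasmic dynein-1 and kinesin-1 are the main motors that carry cargo along microtubules, dynein-1 toward the minus end near the cell center and kinesin-1 toward the plus end near the cell border. Dynein-1 is built on a heavy chain with motor activity, to which intermediate, light intermediate and light chains add the links to dynactin and to cargo. Kinesin-1 is a pair of heavy chains, each carrying the motor, with a pair of light chains that bind cargo. Most subunits come as paralogs. In the textbook view Dync1i2, Kif5b and Klc2 are found in most tissues, whereas Dync1i1, Kif5a and Kif5c are best known from neurons. Here 10 genes of both motors were followed among the 25230 genes counted: the intermediate chains Dync1i1 and Dync1i2, the light intermediate chains Dync1li1 and Dync1li2, the light chain Dynlt3, the heavy chains Kif5a, Kif5b and Kif5c, and the light chains Klc1 and Klc2. They were picked because Dync1i1 and Kif5c differed between the genotypes in these same libraries, so the genotype differences of the 10 genes are given as a description, without p-values, and tests are given for the response to TGF-β, which the choice did not use.

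The cells were primary mouse mesangial cells (MMC), the contractile support cells of the glomerular capillaries, grown out of pooled glomeruli. WT cells came from wild-type mice. The cells labelled lncMGC_KO came from the KO5 line on a C57BL/6 background, in which Cas9 and a pair of guides had removed a short piece just after the transcription start of lncMGC, the host transcript of the miR-379 cluster. Cells of each genotype were either serum-depleted (SD) or given TGF-β at 10 ng/ml for 24 h, and the 4 resulting groups (WT-SD and WT-TGF, KO-SD and KO-TGF) held 3 libraries each. The study calls the samples of a group independent, but neither it nor the labels say whether they came from separate mice or cultures, so p-values measure the spread between these libraries, which may be technical, and genotype cannot be told apart from the cultures in which it was measured.

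The libraries held 19898050 to 22827706 counts on genes. lncMGC was not among the genes counted. Mirg, which overlaps its end, had 2.14 to 2.68 CPM (TMM-scaled counts per 1e6) in WT-SD against 3.31 to 4.3 in KO-SD. It was thus higher in KO-SD (log2 difference 0.68, edgeR adjusted p = 6.51e-05), a direction that goes against the label, and after TGF-β it averaged 3.59 CPM in WT against 4.27 in KO (0.26, adjusted p = 0.145). These Mirg counts, 47 to 59 per library in WT-SD and 72 to 89 in KO-SD, are low and do not check the deletion. By RT-qPCR the study reports no lncMGC in KO5 cells and less Mirg than in WT cells. KO below means the libraries labelled KO. Of 7 mesangial markers, Acta2 and Pdgfrb were high in all groups and Thy1 had at most 1 count in any library. The 7 genes did not move as one with genotype. Their sum, which was mostly Acta2, was at 2087 to 2191 CPM in WT-SD, 3452 to 3560 in WT-TGF, 3598 to 3718 in KO-SD and 6659 to 6723 in KO-TGF. Serpine2 averaged 277 CPM in WT-SD and 83.9 in KO-SD, and Des 7.67 and 0.529. Itga8 averaged 2.89 CPM in WT-SD and 3.05 in KO-SD, but 1.61 in WT-TGF and 0.638 in KO-TGF. Gata3 was higher in KO, with 4.03 CPM in WT-SD against 7.21 in KO-SD and 4.06 in WT-TGF against 9.12 in KO-TGF. Other markers moved with genotype as well. The 7 macrophage markers summed to between 15 and 26 CPM in the WT libraries and to between 0.802 and 2.22 CPM in the KO libraries, where Adgre1, C1qa and C1qb were at 0. Of the podocyte markers, the 3 that were tested averaged less in KO-SD than in WT-SD, with 25.3 against 98.9 CPM for Wt1, 32.8 against 97.9 for Podxl and 160 against 246 for Synpo, and they were lower in KO after TGF-β as well. The 5 tubular markers summed to 67.4 to 74.2 CPM in WT-SD, 16.9 to 18.5 CPM in WT-TGF and no more than 14.7 CPM in KO, with Slc34a1, Umod and Aqp2 at 0 throughout. The 5 endothelial markers summed to at most 1.01 CPM. The 8 markers of cycling cells summed to 101 to 121 CPM in WT-SD, 30.5 to 34.6 CPM in WT-TGF, 420 to 430 CPM in KO-SD and 55.4 to 60.7 CPM in KO-TGF. The part of these differences in the results was not tested. In cultures of mixed cells, fewer cells of a type and less RNA per cell cannot be told apart.

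The promoters of 6 of the 10 genes were found in RefSeq on GRCm38.p6, as windows from 250 bases before to 50 bases after a transcription start. Those of Dync1i1 and Kif5c are shown because these genes carried the genotype difference and the TGF-β response described next, and that of Klc1 because its response to TGF-β differed between the genotypes. Capitals mark matches, on either strand, to CAGAC (the box bound by SMAD proteins), GGGCGG (the GC box), TGACGTCA (the cAMP response element) and TATAAA (the TATA box). The sequences are written along the strand of the gene.
Dync1i1, chr6:5725389-5725688, plus strand: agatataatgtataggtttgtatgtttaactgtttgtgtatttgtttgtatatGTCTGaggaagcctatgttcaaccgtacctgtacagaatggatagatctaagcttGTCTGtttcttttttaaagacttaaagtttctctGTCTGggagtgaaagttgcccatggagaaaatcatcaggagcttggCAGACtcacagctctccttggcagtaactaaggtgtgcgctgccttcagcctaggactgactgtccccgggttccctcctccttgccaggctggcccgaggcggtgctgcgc
Kif5c, chr2:49619036-49619335, plus strand: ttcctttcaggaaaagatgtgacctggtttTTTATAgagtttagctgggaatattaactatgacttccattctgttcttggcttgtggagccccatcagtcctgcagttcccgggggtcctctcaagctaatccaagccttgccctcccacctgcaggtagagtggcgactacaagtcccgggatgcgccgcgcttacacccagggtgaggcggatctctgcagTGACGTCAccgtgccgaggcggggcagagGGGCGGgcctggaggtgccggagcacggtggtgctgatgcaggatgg
Klc1, chr12:111758618-111758917, plus strand: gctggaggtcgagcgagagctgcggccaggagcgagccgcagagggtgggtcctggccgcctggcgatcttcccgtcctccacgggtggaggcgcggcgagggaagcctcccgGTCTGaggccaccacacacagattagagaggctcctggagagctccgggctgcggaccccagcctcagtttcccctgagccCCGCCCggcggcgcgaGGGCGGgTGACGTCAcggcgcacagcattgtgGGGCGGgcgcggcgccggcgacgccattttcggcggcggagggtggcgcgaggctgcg
The Dync1i1 window held 4 CAGAC matches, at 197, 142, 108 and 62 bases before the start, and no match to the other letters. Of 32544 promoter windows 49.5% held CAGAC at least once and 0.906% at least 4 times, a count looked up after the match number was known. The Kif5c window held no CAGAC, 1 GC box at 3 bases after the start, 1 TGACGTCA at 26 bases before it and a TATAAA match on the opposite strand at 220 bases before it. The Klc1 window shared TGACGTCA with Kif5c, at 33 bases before the start, and held 3 GC boxes and 1 CAGAC. This window lies wholly inside the annotated span of Klc1, which begins at chr12:111758435, so its start is a later one. TGACGTCA was found in 1.8% of the windows, GGGCGG in 35.9% and TATAAA in 13.6%. These matches are a description of letters, some of which were searched for after the sequences were seen, and binding was not measured. GC content was 46.7% in the Dync1i1 window, 58% in that of Kif5c and 73.7% in that of Klc1, against a median of 53% over all windows.

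Compared per exon length, as RPKM scaled by TMM, the subunits in WT-SD spanned from the light intermediate chain Dync1li2 at 73.9 RPKM to Dync1i1 at 0.0168 RPKM. Below Dync1li2 came Dynlt3 at 61.8, Kif5b at 45.3, Klc1 at 33.5, Dync1i2 at 31.2, Dync1li1 at 16.4, Klc2 at 8.99, Kif5c at 3.72 and Kif5a at 0.837 RPKM. Dync1li2 and Dynlt3 were also the most abundant members in each of the other groups. The limit required for the test, RPKM over 1 in at least 1 library, was computed without TMM. All 10 genes passed it, but Dync1i1 passed it only in the 6 KO libraries and Kif5a in a single WT library, at 1.01 RPKM. Scaled by TMM, Kif5a reached 0.918 RPKM at most. These genes thus entered the test through the groups in which they were high.

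Dync1i1, the intermediate chain known from neurons, was close to absent from WT cells and present in both KO groups. The gene spans chr6:5725600-6028039 on the plus strand. Its raw counts were 1, 1 and 2 in the 3 WT-SD libraries and likewise 1, 1 and 2 in the WT-TGF libraries, below the floor of 3 counts. They were 97, 80 and 88 in KO-SD and 98, 101 and 124 in KO-TGF. No KO library came near any WT library. The summed counts, scaled for library size with TMM, were 69.1 times as high in KO-SD as in WT-SD, with an exact 95% interval from 26.7 to 255. They were 91.4 times as high in KO-TGF as in WT-TGF, with an interval from 35.4 to 337. These intervals cover counting error only. In the KO libraries Dync1i1 was 4.46, 3.86 and 4.04 CPM in SD and 5.25, 5.40 and 6.52 CPM after TGF-β, so that all TGF libraries lay above all SD libraries. This rise had a log2 fold change of 0.47 (standard error 0.129, edgeR adjusted p = 0.0016), and with libraries scaled by their size alone it was 0.27 and missed the threshold (adjusted p = 0.0572, the highest of 19 alternatives, the lowest being 0.000554). No fold change was formed in WT and no interaction, since WT stayed under the floor.

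Dync1i2, the other intermediate chain, remained the main form in every library. Its share of the RPKM of both genes was at least 99.9% in WT and 96.4% ± 0.16 (standard deviation, n = 3) in KO-SD and 95.7% ± 0.434 in KO-TGF. The summed level of both chains was 31.2 ± 0.144 RPKM in WT-SD and 32 ± 0.965 RPKM in KO-SD, with ranges that met at 31.4 RPKM. After TGF-β the sum was 33.4 ± 0.582 RPKM in WT and 37.2 ± 1.06 RPKM in KO, with no overlap. This gap depended on the TMM scaling. After TGF-β, KO minus WT of Dync1i2 was 0.09 on the log2 scale, and -0.03 with libraries scaled by size alone. Dync1i2 itself stood at 260, 257 and 258 CPM in the WT-SD libraries against 264, 251 and 252 in KO-SD, and its genotypes overlapped there.

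Kif5c, a kinesin-1 heavy chain best known from neurons, showed the reverse genotype pattern and the strongest response to TGF-β of the 10 genes. It spans part of chromosome 2, with its promoter window at chr2:49619036-49619335. In WT, Kif5c was 26.9, 26.4 and 26.4 CPM without TGF-β and 68.6, 64.9 and 68.5 CPM with it. In the KO libraries it was 11.4, 11 and 9.45 CPM in SD and 28.0, 27.4 and 29.6 CPM after TGF-β. In TMM-scaled CPM, KO cells given TGF-β thus stood just above WT cells without it, and no libraries of different groups overlapped. That order rests on the scaling. Raw counts were lower in KO-TGF (523, 513 and 563) than in WT-SD (591, 609 and 580), at similar library totals. The rise with TGF-β was 2.53-fold in WT (log2 fold change 1.34, standard error 0.0469, edgeR adjusted p = 1.89e-21) and 2.67-fold in KO (log2 fold change 1.42, standard error 0.0655, adjusted p = 2.01e-18). The responses of the genotypes differed by 0.08 on the log2 scale, with a 95% interval from -0.09 to 0.24 (interaction, edgeR adjusted p = 0.556). As a description, KO minus WT was -1.32 on the log2 scale in SD and -1.25 after TGF-β.

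Kif5a, the third heavy chain and also best known from neurons, was low and did not follow Kif5c in its response. Its CPM was 5.68, 6.42 and 5.46 in WT-SD and 6.15, 6.20 and 5.43 in WT-TGF. In KO it was 3.4, 2.94 and 2.25 in SD and 3.27, 2.67 and 2.79 after TGF-β. Every KO library lay below every WT library, with a log2 difference of -1.03 in each condition. TGF-β gave a log2 fold change of 0.02 in WT (95% interval -0.22 to 0.25, edgeR adjusted p = 0.9) and 0.02 in KO (-0.30 to 0.35, adjusted p = 0.909), which turned negative in both genotypes with libraries scaled by size alone (-0.14 and -0.18).

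Kif5b, the heavy chain of most tissues, was the main form throughout. With TGF-β it went from 361, 368 and 356 CPM to 442, 424 and 434 CPM in WT, and from 415, 380 and 377 CPM to 478, 482 and 482 CPM in KO. All TGF libraries lay above all SD libraries of their genotype. This was a log2 rise of 0.26 in WT (edgeR adjusted p = 2.14e-09) and 0.30 in KO (adjusted p = 9.88e-11), and of 0.10 and 0.09 with libraries scaled by size alone.

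**Figure D1:**
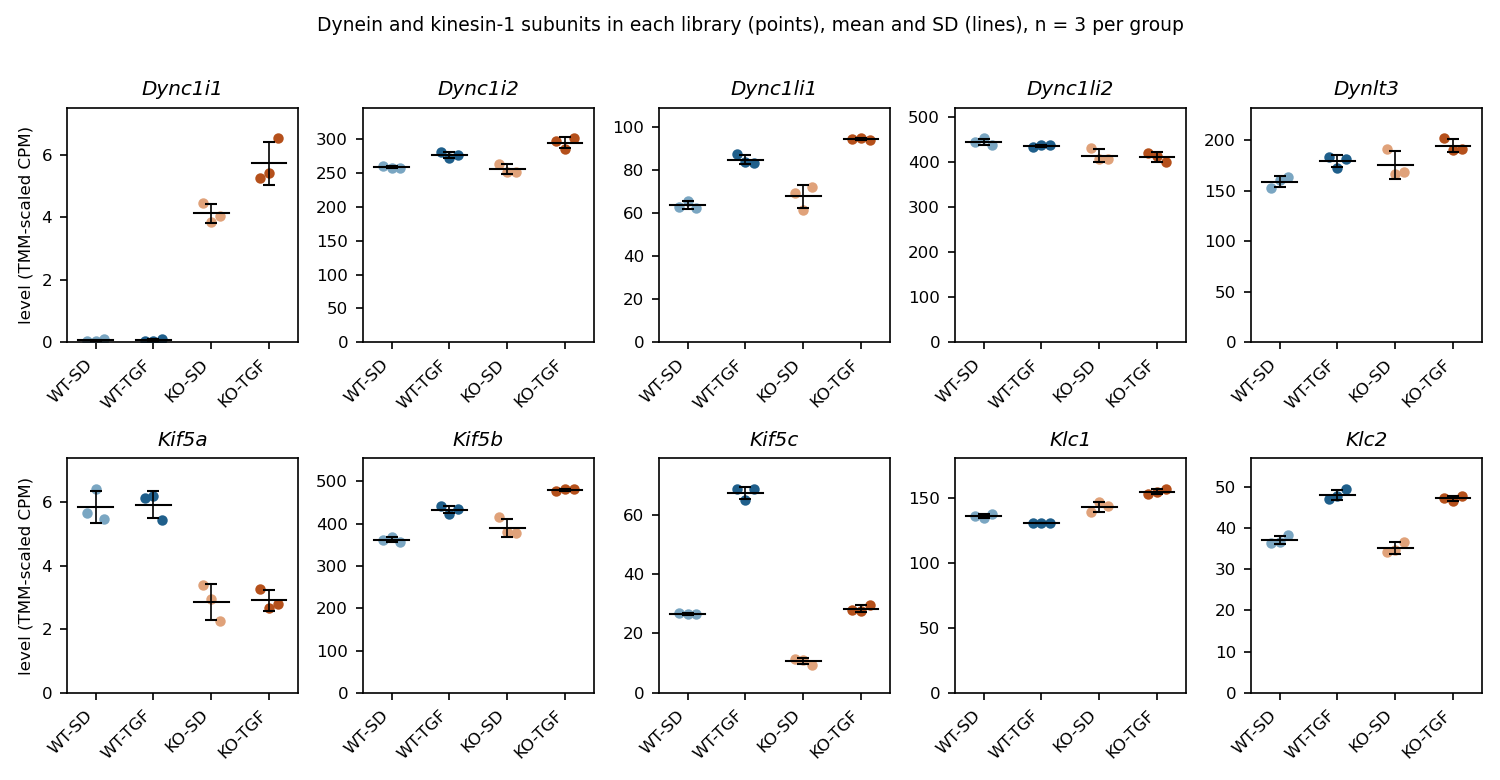
Level of each of the 10 subunits in TMM-scaled CPM (y axis, from 0) in the 12 libraries (points), by genotype and treatment, with the mean and standard deviation of 3 libraries (lines). Dync1i1 lies near 0 in the 6 WT libraries and between 3.86 and 6.52 CPM in the 6 KO libraries, and Kif5c rises from about 26.4 to 68.5 CPM with TGF-β in WT and to 29.6 CPM at most in KO.

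The make-up of the kinesin-1 heavy chains moved with both genotype and TGF-β, while their summed level, scaled by TMM, moved with TGF-β. Of the RPKM of the 3 heavy chains, Kif5c held 7.46% ± 0.148 (standard deviation, n = 3) in WT-SD, 14.6% ± 0.201 in WT-TGF, 2.92% ± 0.204 in KO-SD and 6.14% ± 0.22 in KO-TGF, and no libraries of different groups overlapped. Kif5b held 90.9% in WT-SD, 84.1% in WT-TGF, 96.3% in KO-SD and 93.2% in KO-TGF. The sum of the 3 genes was 49.9 ± 0.815 RPKM in WT-SD and 50.9 ± 2.8 RPKM in KO-SD, and 64.6 ± 1.41 RPKM in WT-TGF and 64.6 ± 0.366 RPKM in KO-TGF. With TMM the genotypes overlapped in each condition, and the TGF libraries lay above the SD libraries in each genotype. The TMM factors were 0.977 to 0.983 in WT-TGF and 0.898 to 0.904 in KO-TGF. Without them the KO-TGF sum falls below that of WT-TGF.

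Among the other paralog pairs, Dync1li1 held 18.2% ± 0.167 of the light intermediate chain RPKM in WT-SD, 23.2% ± 0.544 in WT-TGF, 20.2% ± 1.25 in KO-SD and 26.3% ± 0.486 in KO-TGF (standard deviation, n = 3). Klc2 held 21.1% ± 0.312 of the light chain RPKM in WT-SD, 26.6% ± 0.484 in WT-TGF, 19.5% ± 0.657 in KO-SD and 23.1% ± 0.231 in KO-TGF. In both of these pairs the less abundant paralog took a larger share after TGF-β, in both genotypes and without overlap of libraries. The only heavy chain whose share fell with TGF-β besides Kif5b was Kif5a, from 1.68% to 1.31% in WT and from 0.802% to 0.644% in KO, and its KO libraries overlapped.

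**Figure D2:**
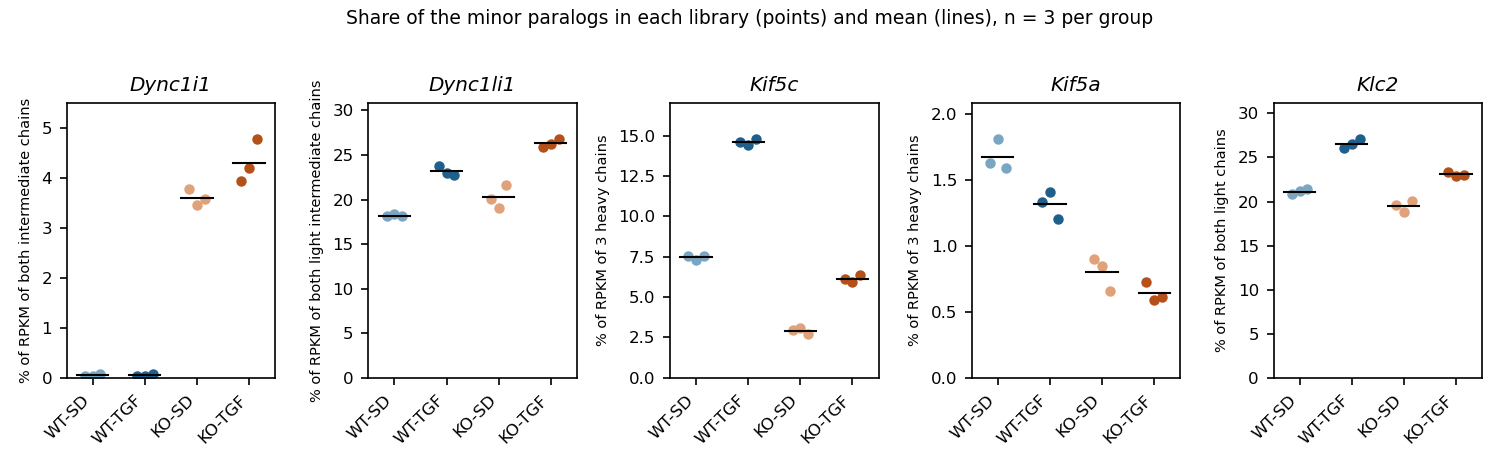
Share, in percent of summed RPKM, of Dync1i1 among the intermediate chains, Dync1li1 among the light intermediate chains, Kif5c and Kif5a among the heavy chains, and Klc2 among Klc1 and Klc2, in each library (points) with group means (lines, n = 3). Kif5c goes from 7.46% to 14.6% with TGF-β in WT and from 2.92% to 6.14% in KO.

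In WT cells TGF-β raised 6 of the 9 members with a measurable WT response and lowered none at FDR under 5%, where 36.0% of the 11530 genes tested were higher and 36.4% lower (72.4% in all). The KO count takes in Dync1i1, which is left out of the 9 in WT and passed the RPKM limit only in KO libraries. In KO cells 8 of 10 members, Dync1i1 included, rose and none fell, where 34.9% of the tested genes rose and 39.1% fell (74.0% in all). No member was lower at an unadjusted p under 0.05 either (0 in each genotype), and DESeq2 called 0 lower. In WT, 1 member was lower in a fit of only the groups compared, and 0 to 1 with single libraries left out. The median over the members other than Dync1i1 was 0.17 in WT and 0.21 in KO (log2), where the medians over all tested genes were -0.01 and -0.03. The split depended most on the scaling. With libraries scaled by size alone, which shifted the median of all genes by -0.15 in WT and -0.2 in KO, 4 members rose and 3 fell in WT, and 4 rose and 2 fell in KO. The 4 that rose under both scalings and in both genotypes were Kif5c, Dync1li1, Klc2 and Kif5b.

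Dync1li1, a light intermediate chain that links the motor to adaptors, went with TGF-β from 63.0, 65.6 and 62.3 CPM to 87.3, 83.8 and 83.3 CPM in WT, and from 69.5, 61.6 and 71.9 CPM to 94.4, 94.6 and 94.1 CPM in KO. The TGF libraries lay above the SD libraries in both genotypes. The log2 fold change was 0.41 in WT (edgeR adjusted p = 5.80e-10) and 0.48 in KO (adjusted p = 2.05e-11), and it was 0.26 and 0.27 with libraries scaled by size alone. Klc2, a light chain that binds cargo, rose from 36.4, 36.7 and 38.3 CPM to 47.1, 47.8 and 49.5 CPM in WT and from 34.2, 34.6 and 36.7 CPM to 47.2, 46.7 and 47.7 CPM in KO. No SD library reached a TGF library of its genotype, and the log2 fold changes were 0.37 (edgeR adjusted p = 3.36e-09) and 0.42 (adjusted p = 4.93e-10). Neither gene had a difference of responses past the threshold, with 0.06 (95% interval -0.05 to 0.18) for Dync1li1 and 0.05 (-0.07 to 0.17) for Klc2.

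Dync1li2, the other light intermediate chain, showed no response past the threshold. Its CPM was 445, 453 and 439 in WT-SD, 434, 438 and 438 in WT-TGF, 431, 407 and 407 in KO-SD and 421, 414 and 400 in KO-TGF. The log2 fold changes were -0.03 (95% interval -0.08 to 0.02) in WT and -0.01 (-0.06 to 0.04) in KO, and they were -0.19 and -0.22, past the threshold, with libraries scaled by size alone. Dynlt3, a light chain of the Tctex type that binds cargo, went from 153, 161 and 164 CPM to 184, 173 and 182 CPM in WT and from 192, 167 and 169 CPM to 202, 191 and 192 CPM in KO. The SD and TGF libraries overlapped in KO and not in WT. Its log2 rise was 0.17 in WT (edgeR adjusted p = 2.03e-04) and 0.15 in KO (adjusted p = 0.00107), which with libraries scaled by size alone became 0.02 and -0.06, both short of the threshold.

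**Figure D3:**
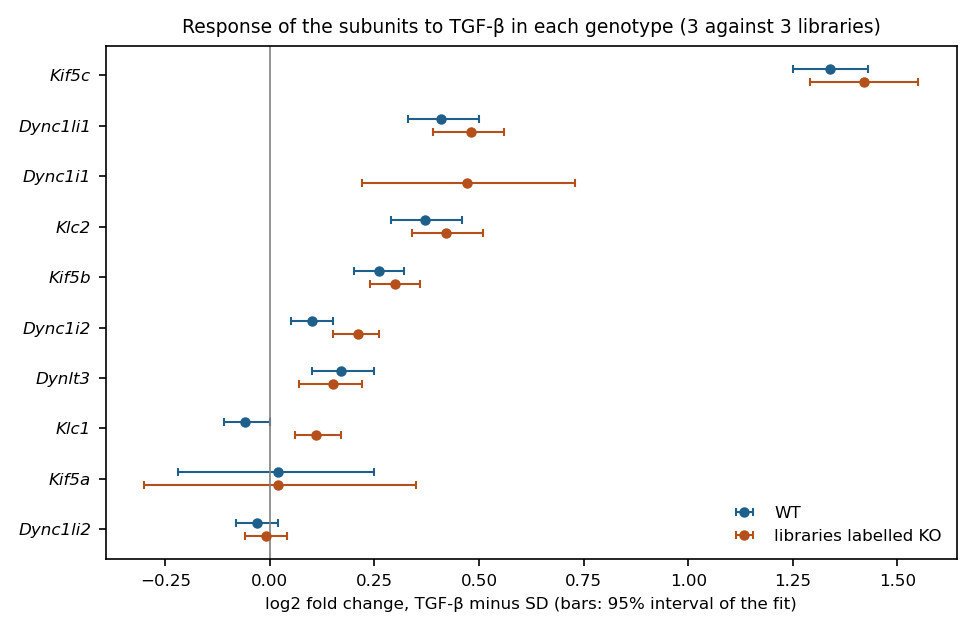
Log2 fold change of TGF-β against SD for each subunit (x axis) with the 95% interval of the fit, in WT (blue) and in the libraries labelled KO (orange), 3 against 3 libraries. Kif5c stands at 1.34 and 1.42, the others lie between -0.06 and 0.48, and Dync1i1 is drawn for KO only.

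The response to TGF-β differed between the genotypes for Klc1 and Dync1i2, 2 of the 9 members for which it could be tested, and both differences were positive. Among all genes 8.67% had a higher response in KO and 16.6% a lower one. Klc1, the light chain best known from neurons, was 136, 135 and 138 CPM in the WT-SD libraries and 131 CPM in each WT-TGF library. In KO it was 139, 147 and 144 CPM in SD and 153, 155 and 157 CPM after TGF-β. The WT-TGF libraries lay below those of WT-SD, and the KO-TGF libraries above those of KO-SD. Its log2 fold change was -0.06 in WT, short of the threshold (edgeR adjusted p = 0.0698), and 0.11 in KO (adjusted p = 9.01e-04), which with libraries scaled by size alone became -0.22 and -0.09, both past it. The difference of the responses was 0.17 (standard error 0.0406, edgeR adjusted p = 0.00185) and stayed past the threshold in all 18 alternatives, between 0.12 and 0.22. Klc1 spans chr12:111758435-111807844, which begins 2.01 Mb after the end of Mirg on the chromosome that carries lncMGC.

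After TGF-β, Dync1i2 was 281, 272 and 276 CPM in WT and 297, 286 and 301 CPM in KO, above the SD libraries of each genotype. Its log2 rise was 0.10 in WT (edgeR adjusted p = 0.0018) and 0.21 in KO (adjusted p = 6.02e-08), whereas scaling by library size alone gave -0.06 in WT and 0.00 in KO. The difference of the responses, 0.11 (standard error 0.038, edgeR adjusted p = 0.0359), missed the threshold in 10 of 18 alternatives, with adjusted p between 0.00243 and 0.228. Without KO-SD replicate 2 it was 0.09, and it missed the threshold without any one of the WT-SD libraries, of WT-TGF replicates 2 and 3 and of KO-SD replicates 2 and 3. For Kif5b (0.04, 95% interval -0.04 to 0.12), Dync1li2 (0.02, -0.05 to 0.09), Dynlt3 (-0.03, -0.13 to 0.08) and Kif5a (0.00, -0.40 to 0.41) no difference of responses passed the threshold, although without KO-SD replicate 1 that of Kif5b was 0.08 and did (edgeR adjusted p = 0.0453, of 0.0453 to 0.921 over its alternatives).

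Beyond Dync1i1, Kif5c and Kif5a, the members differed little between the genotypes. In SD 4 members were higher and 3 lower in KO at FDR under 5%, where 30.9% of all genes were higher and 25.2% lower (56.1% in all), and after TGF-β 6 were higher and 3 lower, where 27.3% and 27.8% were (55.0% in all). Nothing is read from these counts, since the genes were picked on this contrast. The log2 differences of the other 7 members ranged from -0.10 for Dync1li2 to 0.14 for Dynlt3 in SD and from -0.09 for Dync1li2 to 0.24 for Klc1 after TGF-β. Scaling by library size alone changed the split to 1 higher and 5 lower in SD and to 2 higher and 4 lower after TGF-β.

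Since Dync1i1, Kif5a and Kif5c are best known from neurons, 10 neuron markers were set beside them. Their sum was 21.7 to 25.5 CPM in WT-SD, 102 to 107 CPM in WT-TGF, 29 to 33.7 CPM in KO-SD and 132 to 143 CPM in KO-TGF. Of the 10, the 3 with enough expression for the test, Tubb3, Syn1 and Stmn2, rose with TGF-β in both genotypes. Tubb3 was the largest part of the sum, with means of 11.5 CPM in WT-SD, 72.3 in WT-TGF, 17.7 in KO-SD and 95.1 in KO-TGF. Stmn2 averaged less in KO (1.75 CPM in SD, 3.19 after TGF-β) than in WT (2.78 and 7.58), unlike the sum. Map2 and Mapt had at most 14 and 15 counts in any library, and neither rose in both genotypes. Map2 averaged 0.568 CPM in WT-SD, 0.376 in WT-TGF, 0.219 in KO-SD and 0.0535 in KO-TGF. Mapt averaged 0.389, 0.538, 0.404 and 0.336 CPM in the same order of groups. Snap25 was at 0 in every library, and Nefl, Elavl3, Elavl4 and Rbfox3 had at most 2 counts in any library. The 4 Schwann cell markers summed to between 1.21 and 2.78 CPM.

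No tested neighbor of Dync1i1 was higher in KO. Within 500 kb of Dync1i1 lie 7 other annotated genes, of which 4 were tested, and all 4 were lower in KO-SD at FDR under 5% and 2 of them in KO-TGF, where 25.2% and 27.8% of all genes were lower. The nearest, the mitochondrial carrier Slc25a13, begins 13.2 kb after Dync1i1 and had a log2 difference of -0.17 in SD and -0.24 after TGF-β. Before Dync1i1 lie Pdk4, a kinase that restrains pyruvate oxidation (-0.48 and -0.07), and the paraoxonases Pon2 (-0.19 and -0.06) and Pon3 (-0.40 and -0.83). Pon3 is the farthest, at 469 kb. 1700019G24Rik, on the opposite strand inside Dync1i1, had at most 1 count, and the authors' counting used the strand. Around Kif5c, 2 of 4 neighbors were tested. Epc2, 67.3 kb before it, differed by -0.05 in SD and -0.11 after TGF-β, and Mbd5, at 300 kb, by 0.05 and 0.04.

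**Figure D4:**
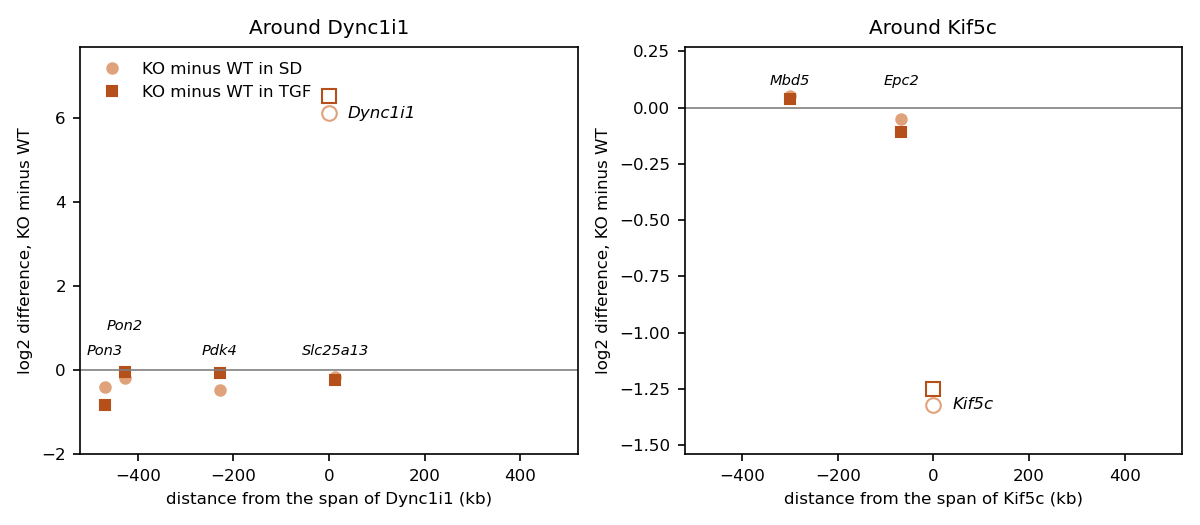
Log2 difference KO minus WT (y axis) in SD (circles) and after TGF-β (squares) for the tested genes within 500 kb of Dync1i1 (left) and Kif5c (right), against the distance in kb from the span of each gene (x axis), with the gene itself as an open symbol at 0. For Dync1i1 the log2 of the count ratios 69.1 and 91.4 is drawn, and its neighbors lie between -0.83 and -0.06.

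As a description, the genes most alike to Dync1i1 over the 12 libraries, by Pearson's r of log2 CPM among 10510 genes, were Pcdhgb2 (r = 0.9972), a γ-protocadherin, Col6a2 (0.9967), a chain of type VI collagen, Txnip (0.9918), the thioredoxin-interacting protein, Hoxc11 (0.9902), a homeobox factor, and Lurap1l (0.9901). Col6a2 averaged 8.05 CPM in WT-SD against 43.7 in KO-SD. The lowest of the 5 in WT was Hoxc11, at 1.37 CPM in SD and 1.5 after TGF-β, against 7.14 and 11.5 in KO. Those most alike to Kif5c were the transcription factor Sox8 (r = 0.9971), the ubiquitin ligase Pdzrn3 (0.9962), Ier3 (0.9934), the NF-κB inhibitor Tnfaip3 (0.9925) and the kinase Mast4 (0.9916). Sox8 averaged 32 CPM in WT-SD, 91.6 in WT-TGF, 10.5 in KO-SD and 36.8 in KO-TGF, the same order of groups as Kif5c in TMM-scaled CPM. The points of such correlations share the 4 groups.

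The wider machinery was taken from 6 lists with 71 genes in the files, 57 of them tested. TGF-β raised 20 (35.1%) and lowered 27 (47.4%) of the 57 in WT, where 36.0% of all genes tested rose and 36.4% fell. In KO it raised 23 (40.4%) and lowered 23 (40.4%), where 34.9% of all genes rose and 39.1% fell. With libraries scaled by size alone these splits were 12 to 36 and 11 to 35. Over the lists the median log2 change was -0.05 for WT and 0.02 for KO, and -0.21 and -0.19 with that scaling. Dync1h1, the heavy chain that carries the dynein motor, was at 1702, 1698 and 1726 CPM in the WT-SD libraries and 1527, 1584 and 1577 CPM after TGF-β, and at 1576, 1600 and 1635 CPM in the KO-SD libraries and 1621, 1665 and 1667 CPM after TGF-β. Its SD and TGF libraries overlapped in KO and not in WT. Its log2 fold change was -0.13 in WT (edgeR adjusted p = 3.33e-06) and 0.04 in KO (adjusted p = 0.0738), which with libraries scaled by size alone became -0.29 and -0.16, both past the threshold. The responses differed by 0.17 (edgeR adjusted p = 5.14e-05), and by 0.13 with that scaling. Like Klc1 it lies on chromosome 12, at chr12:110601395-110666944, 0.852 Mb after the end of Mirg. Of the dynein light chains, Dynll1 rose by 0.55 in WT and 0.54 in KO and Dynll2 fell by 0.37 and 0.42. Dynlt1a, Dynlt1b, Dynlt1c and Dynlt1f are near-identical copies with at most 26 counts in any library, and their values are uncertain.

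Beside the counts of single lists, 36.0% of all genes tested rose and 36.4% fell in WT, and 34.9% rose and 39.1% fell in KO. Of the 12 genes of dynactin, the complex that dynein-1 needs to move far, 8 rose and 1 fell with TGF-β in WT. In KO 9 of them rose and 2 fell. But with libraries scaled by size alone 3 rose and 4 fell in WT and 4 rose and 5 fell in KO. Actr1b, a protein of the dynactin filament, had log2 fold changes of 0.63 in WT and 0.73 in KO and Dctn3 of 0.58 and 0.41, while Dctn1, the subunit that binds microtubules, had -0.28 and -0.11. These 3 kept their directions with libraries scaled by size alone. Among 15 regulators and adaptors tested, 7 rose and 6 fell in WT and 7 rose and 5 fell in KO, and with libraries scaled by size alone 6 and 8 in WT and 4 and 8 in KO. Ninl, an adaptor at the centrosome, went with TGF-β from 44.1, 47.1 and 43.3 CPM to 24.7, 25.4 and 24.6 CPM in WT and from 29.1, 30.6 and 32.3 CPM to 22.7, 21.9 and 22.9 CPM in KO, without overlap. On the log2 scale it fell by 0.85 in WT and by 0.45 in KO, and the responses differed by 0.40 (edgeR adjusted p = 0.000103). Spdl1, an adaptor of dynein at the kinetochore, averaged 2.2 CPM in WT-SD, 1.78 in WT-TGF, 6.72 in KO-SD and 1.79 in KO-TGF. It fell by 1.90 in KO (edgeR adjusted p = 1.74e-12), with -0.30 in WT (adjusted p = 0.14, and -0.46 and 0.0259 with libraries scaled by size alone), and the responses differed by -1.60 (adjusted p = 9.01e-06). The summed cycling-cell markers were likewise highest in KO-SD, and their part in this result was not tested.

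Of 11 tested partners of kinesin-1, 2 rose and 6 fell with TGF-β in WT and 2 rose and 5 fell in KO. With libraries scaled by size alone it was 2 and 8 in each genotype. For these and the lists below, 36.0% of all genes tested rose and 36.4% fell in WT, and 34.9% and 39.1% in KO. Klc3, a further light chain, rose by 0.80 in WT (edgeR adjusted p = 2.17e-09) and 1.02 in KO (adjusted p = 4.99e-11), from 7.55 to 13.2 and from 6.36 to 12.9 CPM on average. Mapk8ip1, a scaffold that kinesin-1 carries, fell, on the log2 scale, by 0.87 in WT and by 1.31 in KO, and the responses differed by -0.44 (edgeR adjusted p = 0.00275). In KO against WT, given as a description, Map7, a microtubule protein that recruits kinesin-1, was at -1.89 in SD and -1.65 after TGF-β, and Clstn2, a calsyntenin that binds kinesin light chains, at -1.57 and -1.59. The 5 subunits of dynein-2, the motor of cilia, all fell with TGF-β in WT, with a median of -0.42, and 3 of them in KO, where all 5 fell with libraries scaled by size alone. Of 10 kinesin-2 and kinesin-3 genes, 7 fell in each genotype, while 1 rose in WT and 3 in KO, and none rose with libraries scaled by size alone. Kif1a, a carrier of synaptic vesicle precursors in neurons, had a log2 fold change of -0.05 in WT (edgeR adjusted p = 0.28) and 0.28 in KO (adjusted p = 2.93e-06), which with that scaling became -0.20, past the threshold, and 0.08, short of it, with responses differing by 0.33 (adjusted p = 8.67e-05), and its KO level was 39.2 CPM in SD against 89.8 CPM in WT-SD.

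Over the 6 lists, 10 of 57 genes (17.5%) had a higher response in KO and 3 (5.26%) a lower one, where 8.67% and 16.6% of all genes did, and with libraries scaled by size alone 8 and 6. In the genotype contrasts, as a description, 14 genes (24.6%) were higher and 25 (43.9%) lower in KO-SD, where 30.9% and 25.2% of all genes were, and 22 (38.6%) and 21 (36.8%) in KO-TGF, where 27.3% and 27.8% were. With libraries scaled by size alone these splits were 7 to 35 and 6 to 30.

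**Figure D5:**
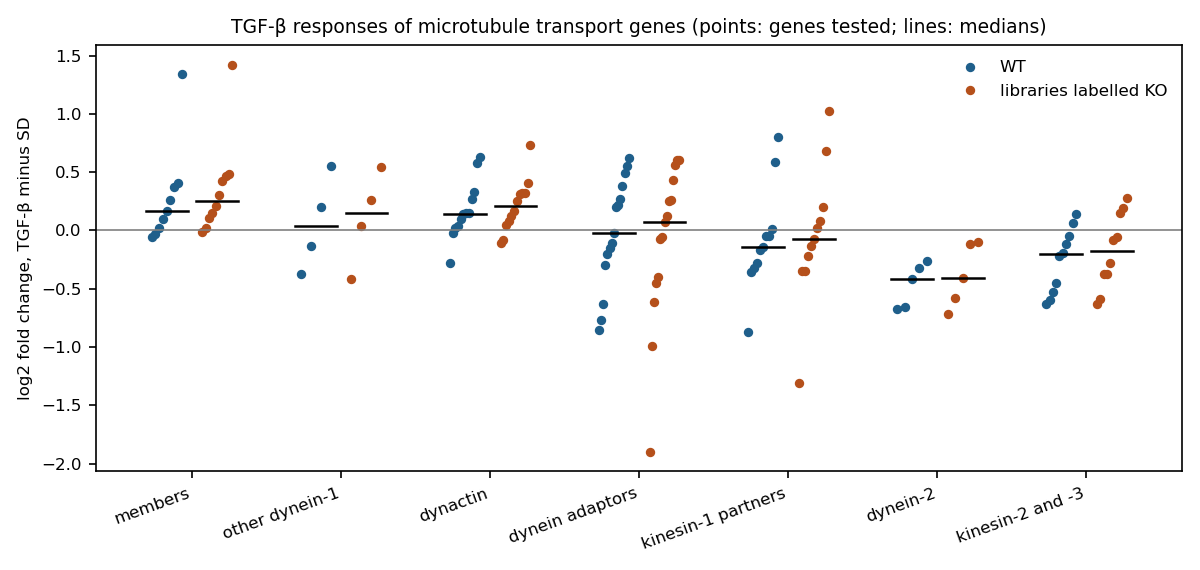
Log2 fold change of TGF-β against SD (y axis) for the members and the tested genes of the 6 lists (x axis), in WT (blue) and the libraries labelled KO (orange), with medians (lines). Dynein-2 subunits lie below 0 in both genotypes, with medians of -0.42 and -0.41, and most dynactin genes above 0 under TMM scaling; the members are drawn without Dync1i1 in WT.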

How the data were processed

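RNA-seq libraries (12) were made from mRNA of MMC. The deposited values are raw counts per RefSeq gene, which the authors obtained with HTSeq, by strand, from single-end reads that TopHat had placed on mm10, and they are not normalized. Reads on no gene, on several genes or aligned to several places (22.1% to 27.4% of a library) were left out of library sizes and tests. Symbols matched RefSeq genes for 24930 genes, and 199 more by an older symbol. Exon lengths came from GENCODE vM21 for 24718 genes.

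The 11530 genes that reached RPKM >1 in any library, the limit used in the study, were scaled by TMM and tested with edgeR 4.0.16 (R 4.3.3) by the quasi-likelihood test with Benjamini-Hochberg adjustment at FDR <5%, in one fit of 12 libraries. The biological coefficient of variation was 0.0268. The fit was tested on simulated data. Genes below the limit were read from a fit of 18565 genes with a count. CPM and RPKM are scaled by TMM, except that the RPKM >1 limit was applied without it. A count of 3, taken as the floor, was 0.13 to 0.161 CPM. Within groups, libraries differed beyond sampling noise, as chi-square over degrees of freedom was 1.33 to 5.2 in 12 pairs.

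The members and lists were chosen with earlier results of these data known. The lists' genes named were the 3 with the largest change past FDR <5% and at least 5 CPM in the higher group, for each contrast, and Dync1h1. Further genes, given as examples of a list, were chosen after their values were seen. The 5 genes most alike to Dync1i1 and Kif5c were named by r of log2 CPM with a prior count of 2. Results were recomputed with DESeq2 1.42.0, with scaling by library size alone, without a filter, keeping genes above 1 CPM in 3 or more libraries, by the likelihood ratio test, on only the groups compared, with a replicate block, and without each library in turn. The smallest p that exact permutation of 3 against 3 libraries allows is 0.1. Of the podocyte list only the genes tested are reported here.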

Additional observations from a re-analysis of the deposited data

Results flagged for a closer look

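The response to TGF-β differed between the genotypes, by a test of the difference itself (the interaction term of edgeR's quasi-likelihood fit with Benjamini-Hochberg adjustment), for 2 members and 5 named genes of the lists. On the log2 scale, KO minus WT, it was 0.17 for Klc1 (adjusted p = 0.00185) and 0.11 for Dync1i2 (adjusted p = 0.0359), the latter lost in 10 of 18 alternatives. It was 0.17 for Dync1h1 (adjusted p = 5.14e-05), 0.33 for Kif1a (adjusted p = 8.67e-05), 0.40 for Ninl (adjusted p = 0.000103), -0.44 for Mapk8ip1 (adjusted p = 0.00275) and -1.60 for Spdl1 (adjusted p = 9.01e-06). Among all genes tested 25.3% passed this test in either direction.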

How the results depend on the processing

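The TGF-β responses of single members and their differences between genotypes gave 519 values under the alternatives. Of these, 463 kept their direction and side of the threshold or moved by less than the spread between libraries. Values of KO minus WT were not among the 519. Scaling without TMM, by library size alone, changed most: it called 3 members lower with TGF-β in WT, 4 higher and 2 lower in KO, 1 with a higher response in KO, 1 higher and 5 lower in KO-SD and 2 higher in KO-TGF. In the lists it called 12 genes higher in WT, 11 higher and 35 lower in KO, 6 with a lower response in KO, 7 higher in KO-SD and 6 higher in KO-TGF. It turned the TGF-β response of Dync1i2 in WT (-0.06), Dynlt3 (-0.06) and Klc1 (-0.09) in KO and Kif5a in WT (-0.14) and KO (-0.18), the difference of responses of Dync1li2 (-0.03), Kif5a (-0.04) and Kif5b (-0.01), and KO minus WT of Dync1i2 (-0.03) and Dynlt3 (-0.00) after TGF-β and of Klc1 (-0.00) in SD. No filter gave 1 member and 5 list genes with a higher and a lower response in KO, Dync1li2 at 0.00 in both genotypes and a difference of -0.01 for Kif5a. DESeq2 turned Dync1li2 in KO (0.01) and the difference of Dynlt3 (0.00), the CPM filter gave 0.00 for Dync1li2 in KO and 5 list genes with a lower response, the likelihood ratio test 1 member with a higher response, and only the groups compared 1 member lower in WT. With single libraries left out, 0 to 1 members fell in WT, 1 to 3 members had a higher and 2 to 6 list genes a lower response in KO, and Dync1li2 in KO ranged from -0.03 to 0.03, Kif5a from -0.03 to 0.07 in WT and -0.13 to 0.17 in KO, and the differences of Dynlt3 from -0.06 to 0.04, Kif5a from -0.15 to 0.15 and Kif5c from -0.00 to 0.14. In percent of summed CPM in place of RPKM, which leaves out exon length, Dync1i1 held 0.0232 in WT-SD, 0.023 in WT-TGF, 1.58 in KO-SD and 1.9 in KO-TGF, Dync1li1 12.5, 16.3, 14 and 18.7, Kif5c 6.74, 13.3, 2.62 and 5.54, and Klc1 76.6 in KO-TGF. The cause was not tested otherwise.

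Libraries with the same replicate number did not deviate together (r from -0.0263 to 0.0763 over 18 pairs). With the replicate number as a block, 6 members rose in WT and 8 in KO and 2 had a higher response in KO, as without it. At these depths Dync1i1 in WT, at 1 to 2 counts, cannot be told from 0.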

Other observations

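Kinesins of the mitotic spindle, a list of 13 genes of which 12 were tested, moved together. At FDR <5% in edgeR's quasi-likelihood test, all 12 fell with TGF-β in WT (median log2 fold change -1.43) and all 12 in KO (median -2.68), where 36.4% and 39.1% of all genes fell, and 11 of the 12 had a lower response in KO. Kif11, the motor that separates the spindle poles, averaged 8.09 CPM in WT-SD, 2.67 CPM in WT-TGF, 32.7 CPM in KO-SD and 4.26 CPM in KO-TGF. Cenpe, the kinetochore kinesin, averaged 12.4, 4.56, 48.6 and 7.68 CPM in the same order of groups. The same counts came out with libraries scaled by size alone. In KO-SD all 12 were higher than in WT-SD (median 1.97), and in KO-TGF 10 were higher than in WT-TGF (median 0.65). The 8 cycling-cell markers lay in the same order, from 420 to 430 CPM in KO-SD down to 30.5 to 34.6 CPM in WT-TGF.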
